A study of Homo sapiens with 9 samples.

Results

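The genes described here are 36 genes of glycolysis and of the response to low oxygen, chosen by name: 15 enzymes that carry glucose to lactate, and 21 others, which transport sugar, set the pace of glycolysis, sense oxygen or are switched on when oxygen falls. They were measured in SW1783, an established line of human glioma cells, on 9 Affymetrix expression arrays. The cells had received a synthetic miRNA duplex at 50 nM for 24 h, delivered with the same lipid reagent (Lipofectamine RNAiMAX) in every group, and each group had 3 biological replicates per the labels. The groups were miR-376a*A, the unedited form of the miRNA, miR-376a*G, the form with G in place of the edited base, and miR-control, a control miRNA. The study's stated comparison was each form against miR-control, and the arrays also allow both forms to be set against each other. All groups are transfections of 1 cell line, so untransfected cells are not part of these comparisons. Of the 36 genes, 34 had a probe set (the array's unit of measurement) annotated to them alone, and all 34 passed the filter on brightness, among 12505 genes tested in all. SLC16A3, a lactate exporter, and CA9, a carbonic anhydrase, were not analysed here.

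Glycolysis splits glucose into pyruvate, which lactate dehydrogenase turns into lactate when mitochondria do not take it up. When oxygen is short, the hypoxia-inducible factors (HIF), dimers of an alpha subunit such as HIF1A with ARNT, escape the prolyl hydroxylases (EGLN proteins) that otherwise mark the alpha subunit for destruction through VHL. HIF then binds a short core motif in DNA, the hypoxia response element, and raises the transcription of glucose transporters, most glycolytic enzymes, pyruvate dehydrogenase kinases and angiogenic factors such as VEGFA. In gliomas this programme is known from the poorly perfused zones around necrosis, and cultured glioma cells also use glycolysis when oxygen is plentiful. A miRNA acts on the messages it pairs with through its seed, bases 2 to 8, and A-to-I editing of miR-376a* replaces a single base within that seed, inosine being read as G. RNA was taken from whole cultures, so a change in the share of cells that express a gene and a change in RNA per cell cannot be told apart.

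The miRNA is shown because both duplexes are versions of it. RefSeq lists its unedited mature form as hsa-miR-376a-5p (miR-376a* in older naming), from the miRNA gene MIR376A1 at chr14:101040788-101040809, plus strand, in GRCh38.p14, and the seed is in capitals:
hsa-miR-376a-5p: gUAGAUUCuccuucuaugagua

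Promoters are shown for 3 of the 4 genes that were lower with miR-376a*G than with miR-control. Each is the 250 bases before the annotated start in RefSeq (GRCh38.p14), read along the gene, with capitals marking the hypoxia response core, ACGTG or GCGTG, on either strand (CACGT or CACGC where it lies on the other strand). DDIT4 lies on the plus strand at chr10:72273674-72273923, PFKFB4 on the minus strand at chr3:48556804-48557053 and SLC2A1 on the minus strand at chr1:42958869-42959118:
DDIT4: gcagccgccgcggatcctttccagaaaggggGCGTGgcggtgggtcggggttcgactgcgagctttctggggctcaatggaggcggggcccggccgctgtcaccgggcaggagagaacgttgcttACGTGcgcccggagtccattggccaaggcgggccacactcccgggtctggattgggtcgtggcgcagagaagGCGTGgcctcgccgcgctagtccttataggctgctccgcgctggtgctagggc
PFKFB4: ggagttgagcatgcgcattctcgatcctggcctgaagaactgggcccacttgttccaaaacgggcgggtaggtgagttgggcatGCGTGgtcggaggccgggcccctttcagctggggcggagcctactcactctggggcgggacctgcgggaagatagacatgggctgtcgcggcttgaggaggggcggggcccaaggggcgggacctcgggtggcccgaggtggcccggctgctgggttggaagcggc
SLC2A1: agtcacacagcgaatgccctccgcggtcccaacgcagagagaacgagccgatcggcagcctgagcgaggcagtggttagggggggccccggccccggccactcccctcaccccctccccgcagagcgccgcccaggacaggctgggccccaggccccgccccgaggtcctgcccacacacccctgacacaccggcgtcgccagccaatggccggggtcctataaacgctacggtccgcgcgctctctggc

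The DDIT4 window holds 3 cores, which begin 219, 125 and 53 bases before the start, the PFKFB4 window holds 1, which begins 166 bases before it, and the SLC2A1 window holds 0. None of these windows holds CACGTG, the longer palindrome that contains the ACGTG core on both strands and is also read by other factors. Over all genes 43.2% of 35116 such windows hold a core, and over the listed genes 36 of 60 windows do (60%). Counted by gene, 27 of 32 listed genes have a core in any window (84.4%), against 12945 of 27305 genes (47.4%). The 60 windows belong to 32 genes and the 35116 to 27305, so listed genes had more windows each on average. The shares by gene are therefore not like for like. The 3 windows shown are 68.8%, 68% and 72.4% G or C, and a match of 5 letters is a description of the window and not a binding site. VEGFA, NDRG1, BNIP3L and SLC2A3 were not among the windows used.

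Values are normalized signals in the array's linear units, after quantile normalization of log2(signal + 16), and differences are on that log2 scale, which understates the change of dim genes. A gene is said to have risen or fallen where limma's test, fitted over all 12505 genes with the 3 groups together, gave a Benjamini-Hochberg adjusted p under 0.05. Control replicate 1 stood apart: its highest correlation with any other array was 0.952, against 0.990 to 0.994 for the other 8, and 772 genes differed by 2-fold or more between it and the average of the other controls, while 25 did so between control replicates 2 and 3. Of the 34 listed genes 1 differed by 2-fold or more in this way. At 1.5-fold or more it was 4 of the 34 (ALDOC, SLC2A3, EGLN1 and PDK1) and 3412 of the 12505 genes. The array's 3 prime over 5 prime probe ratios, a sign of RNA quality, were between 0.87 and 0.93 for GAPDH and between 0.86 and 0.91 for ACTB on all arrays. Of 9 astrocytic and glioma markers, VIM, CD44, SLC1A3 and SOX2 passed the filter, and GFAP, S100B, AQP4, NES and OLIG2 did not. SOX2, with a mean signal of 20.9, was close to the filter. The summed signal of the 9 was 4817.9 to 4998.7 with miR-376a*A, 5036.6 to 5153.9 with miR-376a*G and 4948.7 to 5096.7 with miR-control. All 3 blood and all 4 epithelial markers were below the filter. Of 3 endothelial markers 1 (PECAM1) passed it, and of 4 neuronal markers 2 did (RBFOX3, with a mean signal of 22.5 close to the filter, and SLC17A7). SLC17A7 averaged 41.3 and ran from 19.9 to 121.8 over the arrays. The summed endothelial signal was 100.3 to 112.3 with miR-376a*A, 73.0 to 80.9 with miR-376a*G and 92.2 to 183.6 with miR-control. For the neuronal markers it was 69.5 to 90.1, 59.2 to 88.3 and 44.9 to 169.0, in that order. The part of control replicate 1 and of these markers in the results below was not tested, other than by leaving that array out.

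With the edited form, 4 of the 34 genes fell against miR-control and 0 rose: DDIT4, NDRG1, PFKFB4 and SLC2A1. The share called was 4.62% of all genes in either direction and 2.12% downward, and all 4 genes were among the 19 measured that are not enzymes. With the unedited form 0 of 34 passed the test against miR-control (4 had an unadjusted p under 0.05, in limma), where 3.33% of all genes passed. Set against each other, the forms differed in DDIT4 and VEGFA, both higher with miR-376a*A, where 2.63% of all genes passed and 1.39% were higher. The 4 falls with miR-376a*G rest on the choice of model, since 0 of them passed with the replicate number as a block, when 2.88% of all genes did. The difference in DDIT4 between the forms passed in all 21 alternative settings tried.

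**Figure D1:**
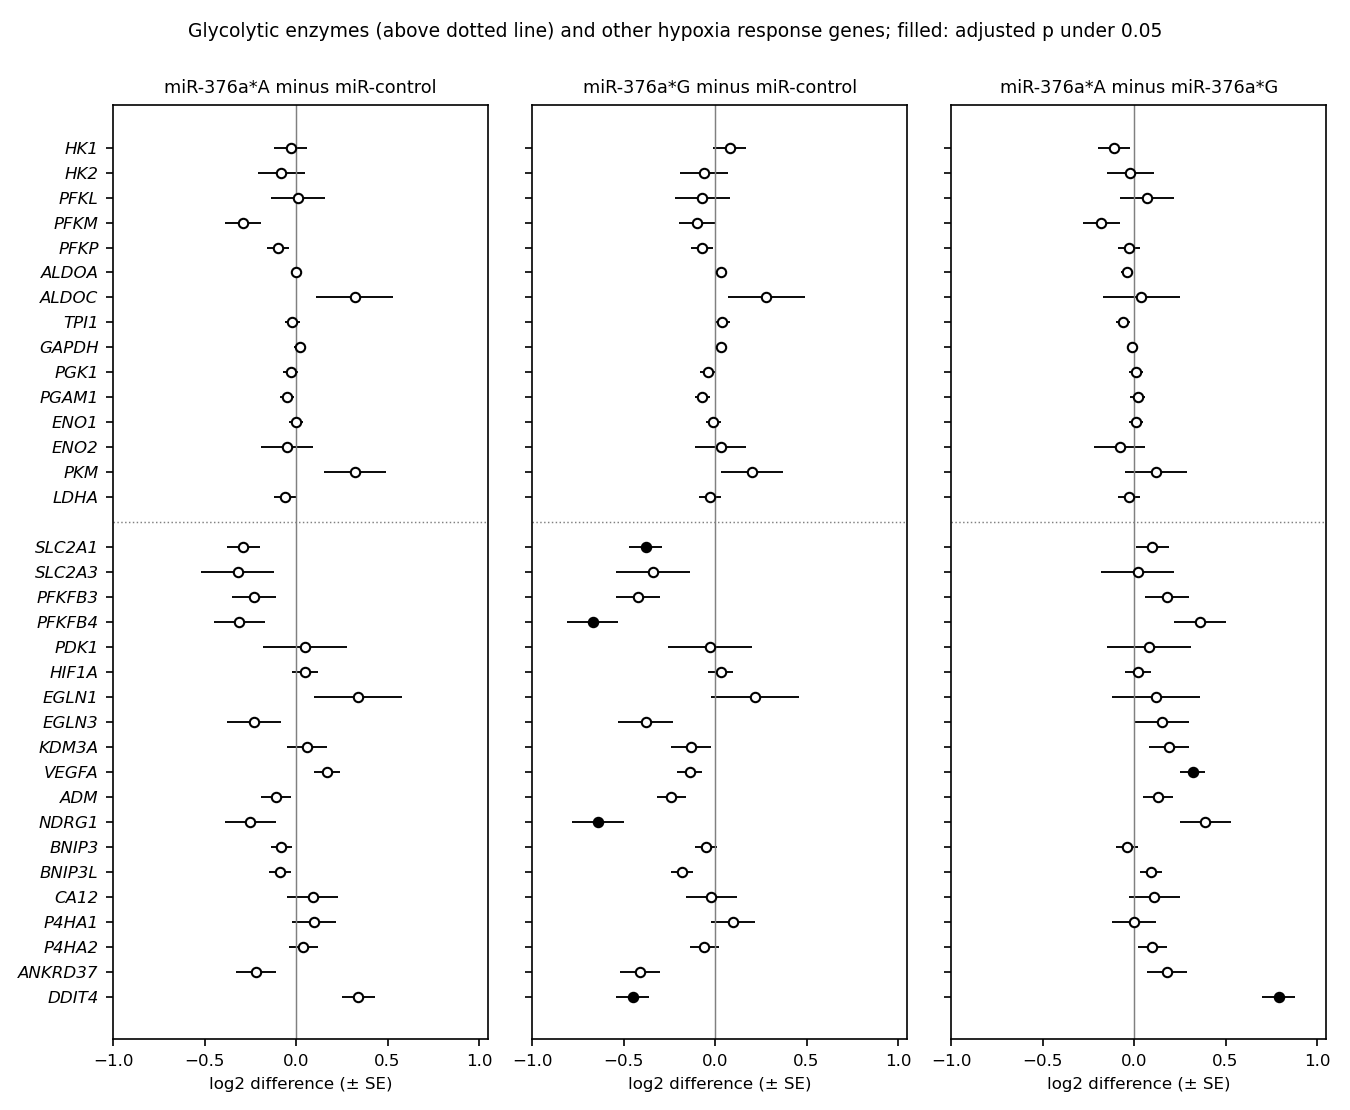
Log2 differences (x axis, ± SE) of the 34 measured genes (rows) for miR-376a*A minus miR-control, miR-376a*G minus miR-control and miR-376a*A minus miR-376a*G, with filled points for limma adjusted p under 0.05. The 15 enzymes above the dotted line have no filled point in any panel, and below it 4 genes are filled to the left of 0 in the middle panel and 2 to the right of 0 in the last.

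DDIT4 (REDD1), an inhibitor of the growth kinase complex mTORC1 that hypoxia and other stresses induce, moved most between the forms. Its normalized signal (202887_s_at) was 1067.8, 1143.9 and 1205.9 on the miR-376a*A arrays, 693.0, 628.7 and 636.7 on the miR-376a*G arrays, and 795.1, 987.3 and 917.6 on the control arrays. Every miR-376a*A array lay above every control array, and every miR-376a*G array lay below them. DDIT4 averaged 1139.2 ± 69.2 over the miR-376a*A arrays and 652.8 ± 35.0 over the miR-376a*G arrays (SD, n = 3 each), 1.73-fold higher with miR-376a*A (0.79 ± 0.09 on the log2 scale, SE, limma adjusted p = 0.00161). Over the 21 alternatives that difference ran between 0.75 and 0.83, with limma adjusted p between 1.41e-06 and 0.0159.

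Against miR-control, whose arrays averaged 900.0 ± 97.3 (SD, n = 3), DDIT4 fell 1.37-fold with miR-376a*G (-0.45 ± 0.09 on the log2 scale, SE, limma adjusted p = 0.0248). With the replicate block the limma adjusted p was 0.0591, and over the alternatives it passed in 11 of 21 and ran between 0.000108 and 0.220. With miR-376a*A the difference from miR-control was 0.34 ± 0.09 on the log2 scale (SE, limma adjusted p = 0.0969) and it passed without control replicate 1, at 0.25 on the log2 scale with an adjusted p of 0.0490. The arrays of the forms thus lay on opposite sides of the controls for this gene, although only the side of miR-376a*G passed with all arrays.

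**Figure D2:**
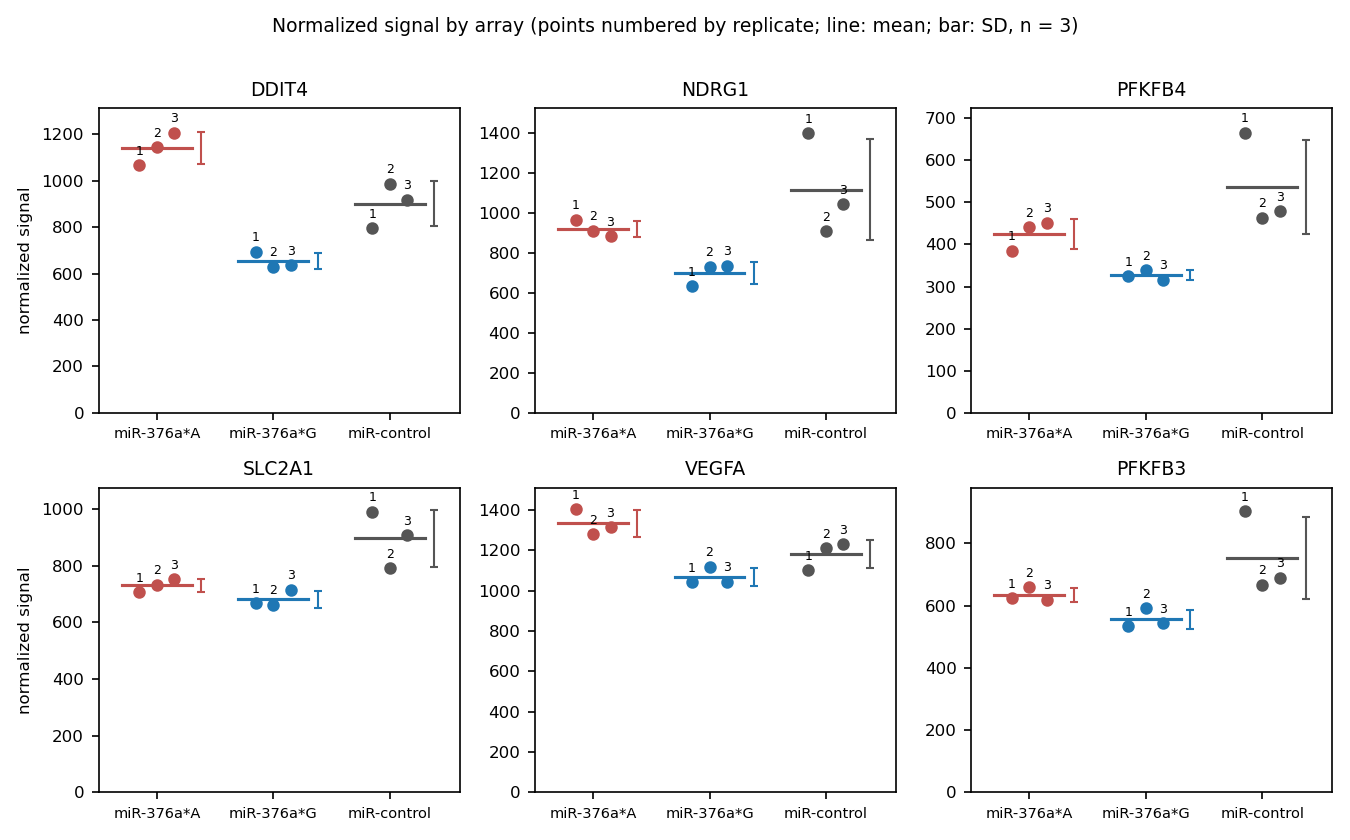
Normalized signal (y axis, linear units from 0) of DDIT4, NDRG1, PFKFB4, SLC2A1, VEGFA and PFKFB3 on each array (x axis, miR-376a*A, miR-376a*G and miR-control), with points numbered by replicate, a line at the mean and a bar for the SD (n = 3). The DDIT4 panel shows 3 separate levels, and in the NDRG1, PFKFB4, SLC2A1 and PFKFB3 panels control replicate 1 is the highest array.

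PFKFB4 and SLC2A1 were the genes of sugar uptake and glycolytic pace that fell with miR-376a*G. PFKFB4 makes and breaks down the fructose bisphosphate that activates phosphofructokinase. PFKFB4 (228499_at) read 325.3, 339.2 and 316.4 with miR-376a*G, and 665.5, 463.7 and 479.2 with miR-control. Its groups did not overlap, and control replicate 1 was the highest of the 9 arrays. It averaged 327.0 ± 11.5 with miR-376a*G and 536.1 ± 112.3 with miR-control (SD, n = 3 each), a 1.59-fold fall (-0.67 ± 0.14 on the log2 scale, SE, limma adjusted p = 0.0238, and 0.0639 with the replicate block). Without control replicate 1 the difference was -0.51 on the log2 scale with an adjusted p of 0.00261, and the call passed in 15 of 21 alternatives.

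With miR-376a*A, PFKFB4 read 385.5, 440.4 and 451.3, between the other groups on every array. These arrays differed from miR-control by -0.31 ± 0.14 (SE, limma adjusted p = 0.342) and from miR-376a*G by 0.36 ± 0.14 on the log2 scale (SE, limma adjusted p = 0.329), and the difference between the forms passed without control replicate 1 (adjusted p = 0.0117), the other not (0.301). A dimmer probe set of the same gene, 206246_at, read 37.8, 41.2 and 42.1 on the miR-376a*A arrays, 20.8, 32.3 and 23.5 on the miR-376a*G arrays, and 46.1, 37.4 and 44.4 on the control arrays. There too all miR-376a*G arrays lay below the others, at -0.50 against miR-control on the log2 scale (adjusted p = 0.0681 in limma's fit of all probe sets).

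SLC2A1 (GLUT1), the widespread glucose transporter of cell membranes, read 667.4, 662.6 and 715.8 with miR-376a*G (201250_s_at), and 990.4, 791.8 and 908.5 with miR-control. All miR-376a*G arrays were below all controls, at -0.38 ± 0.09 on the log2 scale (SE, 1.30-fold lower, limma adjusted p = 0.0455). This call had the highest adjusted p of the 4, with 0.0818 under the replicate block, and passed in 7 of 21 alternatives. With miR-376a*A the arrays read 705.7, 733.6 and 752.0, also all below the controls, at -0.29 ± 0.09 on the log2 scale (SE, limma adjusted p = 0.156, and 0.0973 without control replicate 1). The arrays of the forms overlapped for SLC2A1, with a difference of 0.10 ± 0.09 on the log2 scale (SE, limma adjusted p = 0.893). Its other probe set, 201249_at, differed by -0.28 with miR-376a*G on the log2 scale, with overlapping arrays (adjusted p = 0.417 in the fit of all probe sets).

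PFKFB3, the sister enzyme of PFKFB4 in which the kinase side dominates, read 534.3, 591.0 and 544.2 with miR-376a*G (202464_s_at), and 904.2, 667.6 and 689.3 with miR-control. The groups did not overlap, at -0.42 ± 0.12 on the log2 scale (SE), but the limma adjusted p was 0.0795, and 0.0246 without control replicate 1. Its miR-376a*A arrays, at 623.5, 659.8 and 619.0, lay between the other groups without overlap, at -0.23 against miR-control and 0.18 against miR-376a*G on the log2 scale (limma adjusted p = 0.397 and 0.724). PDK1, the kinase that shuts pyruvate out of the mitochondrial dehydrogenase, read 388.0, 387.1 and 321.5 on the miR-376a*A arrays, 326.8, 364.2 and 344.7 on the miR-376a*G arrays, and 218.7, 425.1 and 463.2 on the control arrays (226452_at). Control replicate 1 was the lowest array and the other controls the highest. The difference of PDK1 with miR-376a*G was -0.03 ± 0.23 on the log2 scale (SE, limma adjusted p = 0.971) with that array and -0.35 without it (adjusted p = 0.0335). In the dimmer PDK1 sets 206686_at and 239798_at, control replicate 1 was instead the highest control. They differed by -0.30 and -0.19 with miR-376a*G, and by -0.18 and -0.03 without that array (adjusted p = 0.357 and 0.938 in limma's fit of all probe sets).

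For the brightest probe set of SLC2A3 (GLUT3), the high-affinity glucose transporter typical of neurons, the arrays of all groups overlapped. This set, 202497_x_at, read 234.4, 305.6 and 266.2 on the miR-376a*A arrays, 293.6, 213.4 and 288.8 on the miR-376a*G arrays, and 461.9, 304.0 and 270.9 on the control arrays. It differed from miR-control by -0.32 ± 0.20 with miR-376a*A and by -0.34 ± 0.20 with miR-376a*G on the log2 scale (SE, limma adjusted p = 0.522 and 0.429). The other probe sets of SLC2A3 are given further on. SLC2A3 has a near-identical copy, SLC2A14, so its values are uncertain as to which gene gave the signal.

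Among the oxygen sensing genes 0 of 4 passed in any comparison with all arrays (limma, with 0, 1 and 0 at an unadjusted p under 0.05 for miR-376a*A against miR-control, miR-376a*G against miR-control and miR-376a*A against miR-376a*G). HIF1A itself, whose protein rather than its message is mainly set by oxygen, differed by 0.05 ± 0.07 with miR-376a*A and by 0.03 ± 0.07 with miR-376a*G on the log2 scale (SE). EGLN3, a prolyl hydroxylase that HIF induces, read 50.9, 64.9 and 62.1 on the miR-376a*A arrays, 54.6, 42.2 and 59.5 on the miR-376a*G arrays, and 60.7, 82.6 and 74.4 on the control arrays (222847_s_at). Only the miR-376a*G arrays lay wholly below the controls, at -0.38 ± 0.15 on the log2 scale (SE, limma adjusted p = 0.195, and 0.0279 without control replicate 1). EGLN1, the main prolyl hydroxylase at normal oxygen, read 439.5, 424.5 and 387.4 on the miR-376a*A arrays, 364.2, 400.8 and 381.1 on the miR-376a*G arrays, and 197.1, 387.2 and 448.5 on the control arrays (223046_at). Its difference with miR-376a*A was 0.34 ± 0.24 on the log2 scale (SE, limma adjusted p = 0.574) and 0.00 without control replicate 1, the lowest array. The dimmer EGLN1 sets 221497_x_at and 224314_s_at differed by 0.19 and 0.28 (adjusted p = 0.427 and 0.358 in limma's fit of all probe sets). Without control replicate 1 they differed by 0.18 and 0.20. In both, every miR-376a*A array lay above every miR-376a*G array, by 0.25 and 0.28 (adjusted p = 0.373 and 0.546 in that fit).

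KDM3A, a histone demethylase that HIF induces, was lower on every miR-376a*G array than on any miR-376a*A array. It read 374.2, 384.1 and 370.9 on the miR-376a*A arrays, 318.2, 335.3 and 331.1 on the miR-376a*G arrays, and 307.4, 377.0 and 407.6 on the control arrays (212689_s_at), the lowest value again being control replicate 1. The forms differed by 0.19 ± 0.11 on the log2 scale (SE, limma adjusted p = 0.686). Against miR-control the difference with miR-376a*G was -0.13 ± 0.11 (SE, limma adjusted p = 0.594) with all arrays and -0.25 without control replicate 1 (adjusted p = 0.0481).

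NDRG1, a stress-responsive gene that HIF and iron loss induce, fell with miR-376a*G as well. It read 632.9, 729.6 and 734.1 with miR-376a*G (200632_s_at), and 1397.9, 906.4 and 1042.8 with miR-control. The groups did not overlap, and NDRG1 averaged 698.9 ± 57.1 with miR-376a*G and 1115.7 ± 253.7 with miR-control (SD, n = 3 each). The fall was 1.56-fold (-0.64 ± 0.14 on the log2 scale, SE, limma adjusted p = 0.0283, 0.0604 with the replicate block and 0.00443 without control replicate 1), and it passed in 9 of 21 alternatives. With miR-376a*A, NDRG1 read 964.3, 910.9 and 881.1, overlapping the controls and all above the miR-376a*G arrays. The forms differed by 0.39 ± 0.14 on the log2 scale (SE, limma adjusted p = 0.271, and 0.00856 without control replicate 1).

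VEGFA, the growth factor that draws in blood vessels, read 1404.9, 1279.3 and 1314.1 on the miR-376a*A arrays, and 1040.4, 1119.6 and 1043.3 on the miR-376a*G arrays (210512_s_at). The forms did not overlap, and VEGFA was 1.24-fold higher with miR-376a*A (0.32 ± 0.07 on the log2 scale, SE, limma adjusted p = 0.0451). The controls, at 1102.1, 1210.1 and 1228.9, lay below every miR-376a*A array and overlapped the miR-376a*G arrays. Against them VEGFA differed by 0.17 ± 0.07 with miR-376a*A and by -0.14 ± 0.07 with miR-376a*G on the log2 scale (SE, limma adjusted p = 0.272 and 0.334). The call between the forms passed in 9 of 21 alternatives, with an adjusted p between 0.00128 and 0.234, and was lost when any 1 array of either form, or control replicate 2, was left out. All 4 VEGFA probe sets were higher on every miR-376a*A array than on any miR-376a*G array, by 0.32, 0.53, 0.54 and 0.43 on the log2 scale (adjusted p = 0.0557, 0.129, 0.180 and 0.0732 in limma's fit of all probe sets).

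ANKRD37, a small ankyrin repeat gene that hypoxia induces, read 193.6, 192.9 and 208.1 on the miR-376a*A arrays, 176.9, 173.8 and 167.5 on the miR-376a*G arrays, and 251.6, 251.4 and 202.8 on the control arrays (227337_at). The miR-376a*G arrays were the lowest of the 9, at -0.41 ± 0.11 against miR-control on the log2 scale (SE, limma adjusted p = 0.0762, and 0.0284 without control replicate 1). By their brightest sets, ADM, which encodes the vessel-dilating peptide adrenomedullin, and BNIP3L, a mitophagy receptor, were also below every control array with miR-376a*G, at -0.24 ± 0.08 and -0.18 ± 0.06 on the log2 scale (SE, limma adjusted p = 0.134 and 0.114). The other set of BNIP3L, 221478_at, overlapped the controls at -0.06 (adjusted p = 0.924 in limma's fit of all probe sets). Without control replicate 1 that set differed by -0.38 (adjusted p = 0.00945). By their brightest probe sets, the mitophagy receptor BNIP3, the carbonic anhydrase CA12 and the collagen prolyl hydroxylases P4HA1 and P4HA2 overlapped between the groups in all 3 comparisons, with differences between -0.08 and 0.11 on the log2 scale. The other set of BNIP3, 201849_at, was about as bright and read 1689.9, 1740.2 and 1745.2 on the miR-376a*A arrays, 1689.9, 1775.5 and 1790.8 on the miR-376a*G arrays, and 2021.6, 1884.2 and 1989.3 on the control arrays. All arrays of both forms lay below every control there, at -0.19 ± 0.05 and -0.16 ± 0.05 on the log2 scale (SE, limma adjusted p = 0.104 and 0.125 in the fit of all probe sets). A dimmer set of P4HA2 that passed is described with the single probe sets.

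All 15 enzymes were measured, and 0 passed in any of the 3 comparisons (limma, with 1, 0 and 0 at an unadjusted p under 0.05 for miR-376a*A against miR-control, miR-376a*G against miR-control and miR-376a*A against miR-376a*G). Their differences ran between -0.29 and 0.32 with miR-376a*A, and between -0.10 and 0.28 with miR-376a*G, on the log2 scale against miR-control. Between the forms they ran between -0.18 and 0.12. By their brightest probe sets, ALDOA, TPI1, GAPDH, PGK1, PGAM1, ENO1 and LDHA, which carry the chain on after phosphofructokinase, differed by between -0.07 and 0.04 on the log2 scale with either form against miR-control, with standard errors of 0.03 to 0.06. These sets are bright, GAPDH averaging 3360.4 and ENO1 3503.0 with miR-control. The highest deposited signal was 3663.1 on control replicate 2 and 7191.2 on control replicate 1. As deposited, the GAPDH set read 5713.1 on control replicate 1 and 3001.6 to 3641.9 on the other arrays. After normalization it read 3326.7 on control replicate 1. The median deposited signal of the enzymes was 1403.2 on that array and 1116.5 to 1199.7 on the others. Quantile normalization gives such bright sets shared values across arrays, so their differences and errors may be understated, which was not tested. The brightest sets of the hexokinases HK1 and HK2, the phosphofructokinases PFKL and PFKP and the neuronal enolase ENO2 differed by between -0.11 and 0.08 in the 3 comparisons. The GAPDH value comes from one of the array's own control probe sets.

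The controls were spread widely for ALDOC and PKM, with control replicate 1 the highest of them. ALDOC, the brain form of aldolase, read 225.6, 245.8 and 247.7 on the miR-376a*A arrays, 222.3, 219.6 and 258.0 on the miR-376a*G arrays, and 286.8, 161.4 and 143.3 on the control arrays (202022_at). With all arrays it differed by 0.32 ± 0.21 with miR-376a*A and by 0.28 ± 0.21 with miR-376a*G on the log2 scale (SE, limma adjusted p = 0.538 and 0.536). Without that array the differences were 0.60 and 0.57, with adjusted p of 0.00203 and 0.00280. PKM, the last step to pyruvate, read 732.6, 719.8 and 879.9 on the miR-376a*A arrays, 694.4, 727.1 and 710.3 on the miR-376a*G arrays, and 805.0, 627.5 and 467.5 on the control arrays (201251_at). It differed by 0.32 ± 0.17 on the log2 scale with miR-376a*A (SE, limma adjusted p = 0.419), and by 0.50 without control replicate 1 (adjusted p = 0.0187). The dimmer PKM set, 213700_s_at, differed by 0.03 with all arrays and by 0.24 without that control (adjusted p = 0.971 and 0.285 in limma's fit of all probe sets).

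PFKM, the muscle form of phosphofructokinase, read 407.8, 439.8 and 417.4 on the miR-376a*A arrays, 448.9, 465.1 and 529.9 on the miR-376a*G arrays, and 494.2, 514.4 and 544.9 on the control arrays (210976_s_at). Every miR-376a*A array was below every array of the other groups. The difference from miR-control was -0.29 ± 0.10 on the log2 scale (SE, limma adjusted p = 0.175, and 0.0348 without control replicate 1). The difference between the forms was -0.18 ± 0.10 (SE, limma adjusted p = 0.593).

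As lists, the enzymes had medians near that of all genes, and the other 19 had a lower median with miR-376a*G. The median difference of the enzymes was -0.03 for miR-376a*A against miR-control, -0.01 for miR-376a*G against miR-control, and -0.02 between the forms, on the log2 scale. For the other 19 the medians were -0.08, -0.18 and 0.12, in that order of comparisons, beside 0.01, 0.01 and 0.00 over all genes tested. With miR-376a*G 16 of the 19 lay below miR-control, and with miR-376a*A 10 of 19 did, where 48.6% and 48.7% of all genes lay below. Between the forms, by the brightest sets, 18 of the 19 were higher with miR-376a*A, BNIP3 being the exception, where 6267 of all 12505 genes were higher. Some of the 18 were near 0, with P4HA1 at 0.00 and SLC2A3 and HIF1A at 0.02 on the log2 scale. Dimmer sets of SLC2A3, 202498_s_at and 202499_s_at, went the other way, at -0.62 and -0.57. These comparisons share arrays, so their counts are not independent of each other, and the list was chosen with earlier results of these data known.

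**Figure D3:**
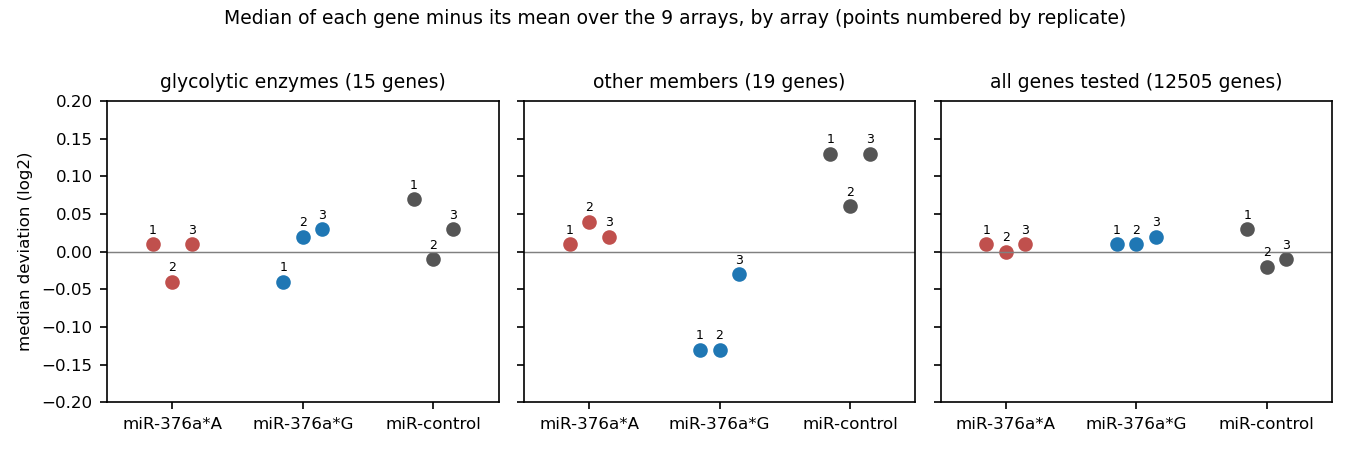
Median over genes of each gene's log2 signal minus its mean over the 9 arrays (y axis), by array and group (x axis, points numbered by replicate), for the 15 enzymes, the other 19 genes and all 12505 genes tested. The other 19 genes sit between -0.13 and -0.03 on the miR-376a*G arrays, and all genes together stay between -0.02 and 0.03.

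By array, the median of the other 19 genes, each centred on its own mean over the 9 arrays, was 0.01, 0.04 and 0.02 on the miR-376a*A arrays, -0.13, -0.13 and -0.03 on the miR-376a*G arrays, and 0.13, 0.06 and 0.13 on the control arrays on the log2 scale. Each miR-376a*G array was below each array of the other groups, and miR-376a*G replicate 3 was the nearest to them. For the enzymes the same medians were 0.01, -0.04 and 0.01 on the miR-376a*A arrays, -0.04, 0.02 and 0.03 on the miR-376a*G arrays, and 0.07, -0.01 and 0.03 on the control arrays, so the groups overlapped. With miR-376a*A against miR-control the median of the 19 was -0.04 without miR-376a*A replicate 1 and -0.13 without control replicate 3.

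Arrays that did not overlap were counted as well. With miR-376a*G, by the brightest sets, 10 of the 34 genes (29.4%) lay wholly below the controls and 0 wholly above. Of all 12505 genes 1187 lay wholly below and 1527 wholly above, or 21.7% in either direction. Of the 10, 9 were among the 19 genes that are not enzymes. With miR-376a*A, 6 (PFKM, PFKP, TPI1, SLC2A1, PFKFB3 and PFKFB4) lay wholly below and 2 (VEGFA and DDIT4) wholly above, or 23.5% of the 34. Over all genes 20.5% were apart, 1119 below and 1443 above, so the share in either direction is near the background. TPI1 differed by only -0.02 on the log2 scale. Its other bright set, 213011_s_at, lay wholly above the controls with miR-376a*A, at 0.03, and overlapped between the forms, at 0.02. Between the forms 8 were wholly higher and 2 (PFKM and TPI1) wholly lower with miR-376a*A, or 29.4% of the 34. Over all genes 29.5% were apart, so the count in either direction is at the background. By direction, 1759 of the 12505 genes were wholly higher and 1927 wholly lower.

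Single arrays moved these counts. The 4 falls with miR-376a*G became 10 calls without control replicate 1, of which 9 were falls (SLC2A1, PFKFB3, PFKFB4, PDK1, EGLN3, KDM3A, NDRG1, ANKRD37 and DDIT4) and 1 a rise (ALDOC), while 17.0% of all genes then passed. Of these, PDK1 differed by -0.03 on the log2 scale with all arrays and by -0.35 without that control. They became 2 without miR-376a*A replicate 1 or 3 or control replicate 3, and 0 without miR-376a*A replicate 2 or any 1 of the miR-376a*G arrays. With miR-376a*A against miR-control, leaving out control replicate 1 gave 4 calls (ALDOC, PKM and DDIT4 higher, PFKM lower), where 13.3% of all genes passed. Between the forms it gave 4, all higher with miR-376a*A (DDIT4, VEGFA, NDRG1 and PFKFB4), where 9.68% passed, and only DDIT4 was left without any 1 array of either form or without control replicate 2.

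Of the 34 genes, 19 had more than 1 probe set past the filter, 75 sets in all, and these were also fitted singly among 27338 probe sets, a view added after the data had been seen. With miR-376a*A 1 of the 75 was higher and 2 were lower than in miR-control, where 2.49% of all probe sets passed. With miR-376a*G 2 were higher and 3 lower (3.44% of all), and between the forms 1 was higher and 1 lower (1.84% of all). In P4HA2, SLC2A3 and HK2 a set other than the brightest passed, and these sets were singled out after their values were seen.

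P4HA2 adds hydroxyl groups to collagen prolines. Its set 1568611_at read 368.0, 358.3 and 356.6 on the miR-376a*A arrays, 320.1, 324.9 and 373.8 on the miR-376a*G arrays, and 92.5, 101.8 and 105.5 on the control arrays. Every array of either form was above every control array, and the arrays of the forms overlapped. The rise was 3.25-fold with miR-376a*A and amounted to 3.06-fold with miR-376a*G (1.70 ± 0.11 and 1.62 ± 0.11 on the log2 scale, SE, limma adjusted p = 2.71e-05 and 5.64e-05), and it passed in 11 of 11 alternatives for each form. The gene's brightest set, 202733_at, differed by 0.04 ± 0.08 and -0.06 ± 0.08 on the log2 scale (SE), with overlapping arrays, so the sets disagree. What part of the P4HA2 message 1568611_at reads is not given in the sources used here.

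In SLC2A3 a pair of dimmer sets fell with miR-376a*A, while the brightest set differed by -0.32 with miR-376a*A and by -0.34 with miR-376a*G on the log2 scale and passed with neither. The dimmer sets were singled out after their values were seen. The set 202499_s_at read 111.1, 108.1 and 103.6 on the miR-376a*A arrays, 170.6, 159.6 and 170.5 on the miR-376a*G arrays, and 215.9, 204.4 and 266.2 on the control arrays. The 3 groups did not overlap, and the miR-376a*A arrays were the lowest. It fell 1.97-fold with miR-376a*A (-0.98 ± 0.12 on the log2 scale, SE, limma adjusted p = 0.00200, passing in 11 of 11 alternatives) and differed by -0.41 ± 0.12 with miR-376a*G (SE, adjusted p = 0.106). The forms differed by -0.57 ± 0.12 on the log2 scale (SE, limma adjusted p = 0.0481), a call kept in 2 of 11 alternatives.

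The set 202498_s_at of SLC2A3 read 58.1, 57.6 and 61.1 on the miR-376a*A arrays, 103.1, 120.0 and 77.6 on the miR-376a*G arrays, and 110.9, 113.0 and 156.7 on the control arrays. It fell 1.89-fold with miR-376a*A (-0.92 ± 0.17 on the log2 scale, SE, limma adjusted p = 0.0163, passing in 7 of 11 alternatives), and its miR-376a*G arrays overlapped the controls. In HK2, the hypoxia-induced hexokinase, 222305_at read 56.0, 62.5 and 48.1 on the miR-376a*A arrays, 60.6, 56.3 and 54.1 on the miR-376a*G arrays, and 26.1, 31.9 and 40.4 on the control arrays. Both forms lay above every control array, at 0.56 ± 0.14 and 0.59 ± 0.14 on the log2 scale (SE, limma adjusted p = 0.0673 and 0.0434). The call with miR-376a*G held in 2 of 11 alternatives, and the brightest set of HK2, 202934_at, differed by -0.08 and -0.06 with overlapping arrays. The dimmest HK2 set, 239410_at, also lay above every control array with both forms, at 0.46 and 0.52 (adjusted p = 0.208 and 0.120 in limma's fit of all probe sets).

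**Figure D4:**
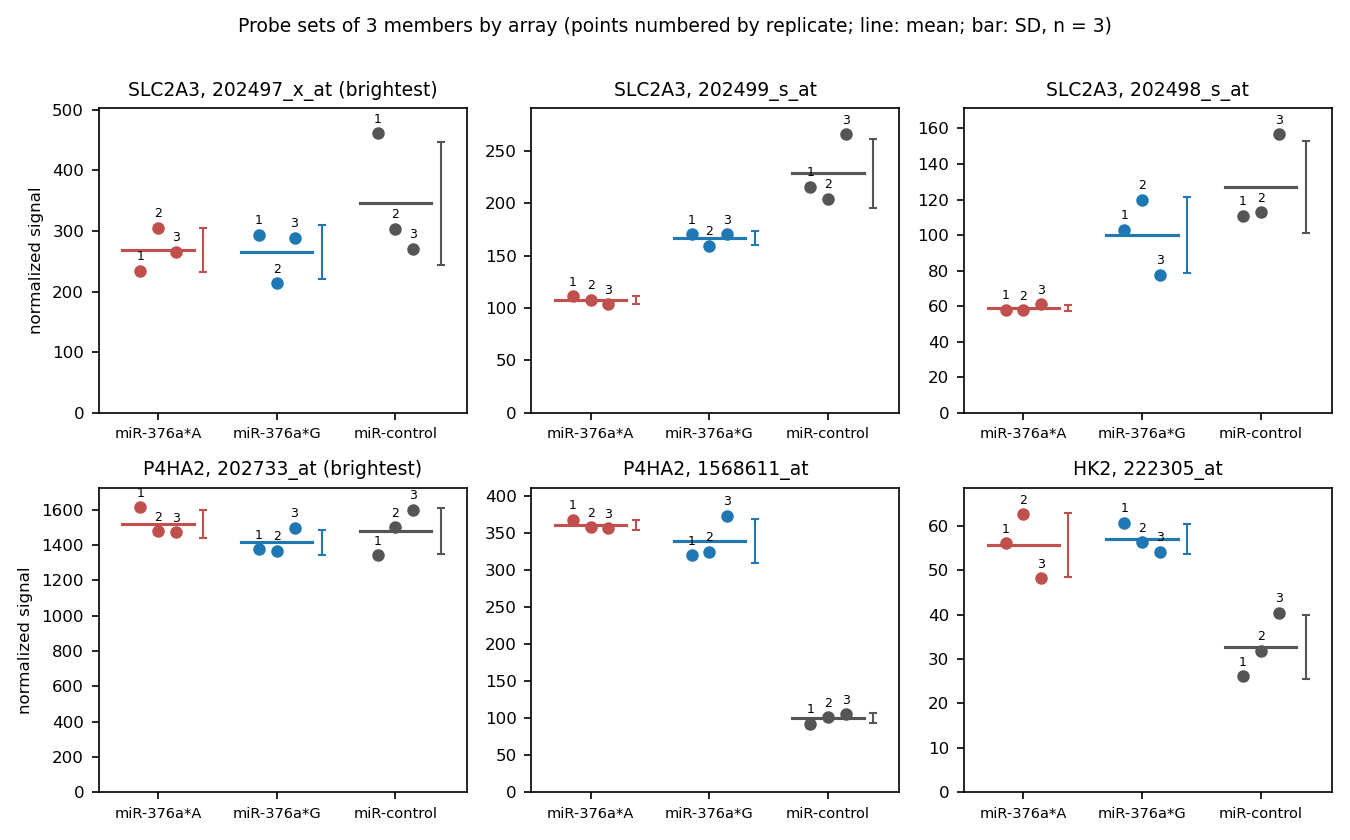
Normalized signal (y axis, linear units from 0) on each array (x axis, miR-376a*A, miR-376a*G and miR-control, points numbered by replicate, line at the mean, bar for the SD, n = 3) for probe sets of SLC2A3, P4HA2 and HK2. 202499_s_at is lowest with miR-376a*A and highest with miR-control, and 1568611_at lies between 320.1 and 373.8 with the 2 forms, against 92.5 to 105.5 with miR-control, while the brightest sets of both genes overlap between groups.

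Other genes of the same pathways were described from lists outside the 36. Of 24 further hypoxia-induced genes measured, 3 (12.5%) fell with miR-376a*G and 0 rose, where 2.12% of all genes fell and 4.62% were called in either direction. The median difference of the 24 was -0.10 on the log2 scale, against 0.01 over all genes. The 3 that fell were PPP1R3C, which brings phosphatase to glycogen, JMJD6, a nuclear hydroxylase, and ZNF395, a zinc finger protein. JMJD6 read 628.6, 596.0 and 552.0 on the miR-376a*A arrays, 351.4, 361.1 and 372.5 on the miR-376a*G arrays, and 670.6, 607.9 and 629.4 on the control arrays. The miR-376a*G arrays stood apart from both other groups, which overlapped. JMJD6 fell 1.73-fold with miR-376a*G (-0.79 ± 0.09 on the log2 scale, SE, limma adjusted p = 0.00103) and was 1.61-fold higher in the miR-376a*A arrays than in the miR-376a*G arrays (0.69 ± 0.09, SE, adjusted p = 0.00238), and both calls passed in 21 of 21 alternatives. Between the forms JMJD6 was the 1 call among the 24 genes (4.17%, against 2.63% of all genes), and with miR-376a*A against miR-control 0 passed (limma, 3 at an unadjusted p under 0.05).

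PPP1R3C read 306.2, 279.8 and 403.2 with miR-376a*G, and 595.8, 593.4 and 729.6 with miR-control. It fell 1.91-fold (-0.93 ± 0.14 on the log2 scale, SE, limma adjusted p = 0.00445, 21 of 21 alternatives, and 0.0121 with the replicate block). Its miR-376a*A arrays, at 528.0, 508.3 and 476.9, lay between the other groups. ZNF395 averaged 528.8 ± 24.9 with miR-376a*G and 745.5 ± 65.6 with miR-control (SD, n = 3 each), a difference of -0.48 ± 0.09 on the log2 scale (SE, limma adjusted p = 0.0154, 16 of 21 alternatives, and 0.0427 with the replicate block). The median of the 24 genes was -0.10 with miR-376a*G, -0.03 with miR-376a*A and 0.05 between the forms on the log2 scale.

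Among 14 other HIF subunits and regulators, 1 (7.14%) passed with miR-376a*A, where 3.33% of all genes did. It was EPAS1 (HIF-2 alpha), the second main alpha subunit. EPAS1 read 1607.9, 1529.8 and 1478.9 with miR-376a*A, and 1114.8, 1190.3 and 1275.5 with miR-control. It rose 1.29-fold with miR-376a*A (0.36 ± 0.07 on the log2 scale, SE, limma adjusted p = 0.0147, passing in 15 of 21 alternatives). Its miR-376a*G arrays, at 1345.9, 1418.9 and 1417.2, also lay above every control, at 0.22 ± 0.07 on the log2 scale (SE, adjusted p = 0.0978), and the forms differed by 0.14 ± 0.07 (SE, limma adjusted p = 0.506). The other 2 comparisons gave 0 calls in this list (limma, 3 at an unadjusted p under 0.05 with miR-376a*G against miR-control and 2 between the forms).

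Of 11 genes of pyruvate entry into mitochondria, 1 (9.09%) was called with miR-376a*G, where 4.62% of all genes were called and 2.12% fell. This was PDK3, a pyruvate dehydrogenase kinase, which fell. It read 767.4, 731.9 and 728.1 with miR-376a*G, and 958.2, 929.2 and 1043.3 with miR-control, a 1.31-fold fall (-0.39 ± 0.07 on the log2 scale, SE, limma adjusted p = 0.0171, 15 of 21 alternatives, and 0.0463 with the replicate block). PDK3 with miR-376a*A, at 871.1, 805.9 and 838.7, lay between the other groups on every array. The list gave 0 calls with miR-376a*A against miR-control or between the forms (limma, 3 and 2 at an unadjusted p under 0.05). Of 10 other glycolytic enzymes, 7 other sugar and lactate transporters and 6 pentose phosphate enzymes, 0 passed in any comparison, with 0 to 2 of each list at an unadjusted p under 0.05 in limma.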

How the data were processed

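RNA of 9 arrays, 3 per group, was measured. The authors deposited linear signal intensities, 1 per array for each of 54675 probe sets, and the submitters' processing notes list GCOS 1.4.0.036. The trimmed mean of every array was 100.01, so the arrays had been scaled before deposit, which would hide a change common to most transcripts. How probe signals were summarised and corrected for background is not given in the sources used here.

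From these, log2(signal + 16) was quantile normalized, since array medians ranged over 0.20. Gene names came from the platform annotation (41097 with 1 gene symbol, 1801 with several, 11777 with none), probe sets with a mean below the 50th percentile (log2 of 5.17) were dropped, and the brightest stood for each of 12505 genes. The brightest set need not read the isoform that changed. limma 3.58.1 in R 4.3.3 (lmFit, eBayes with an intensity trend) was fitted over all genes and groups, two-sided, with Benjamini-Hochberg adjustment and a threshold of 0.05, and was tested on simulated data. Precision is limited by the number of arrays, since 3 against 3 in an exact test give a p of 0.1 at the lowest.

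The 36 genes, the pathway lists and the tests were chosen with earlier results of these data known. Every gene of the 36 is accounted for. Values on every array are given for those past the threshold in any comparison (also with control replicate 1 left out or with the replicate block) and for the 3 largest differences of a comparison; from the pathway lists, genes past the threshold are named, at most 4 a list. Lists are described by counts and medians only.

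The groups share replicate numbers. Deviations of same-numbered miR-376a*G and control arrays around their group means had correlations of 0.156, 0.187 and 0.125, all over the limit of 0.1, so blocked values stand beside that comparison's calls where they change, although no shared culture or day is named in the labels. For miR-376a*A against miR-control r was -0.335, 0.032 and -0.361, and between the forms -0.091, -0.098 and -0.031. The alternatives changed the pseudocount, normalization, filter, probe set rule, array weights, trend, block and arrays used.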

Additional observations from a re-analysis of the deposited data

Results flagged for a closer look

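Genes are given here where the effects of miR-376a*A and miR-376a*G against the same control arrays differed by the test of the difference itself, the contrast of the forms in limma. DDIT4 differed by 0.79 on the log2 scale (adjusted p = 0.00161), VEGFA by 0.32 (adjusted p = 0.0451) and JMJD6 by 0.69 (adjusted p = 0.00238), each higher with miR-376a*A on 3 of 3 arrays than on any miR-376a*G array. The calls of DDIT4 and JMJD6 passed in 21 of 21 alternatives and that of VEGFA in 9 of 21. The cause of these differences was not tested.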

How the results depend on the processing

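No call that the report makes with all 9 arrays turned its sign under any alternative run for it. PDK1, called with miR-376a*G only without control replicate 1, ran from -0.35 to 0.17 over the alternatives. Leaving out each array in turn, the number of the 34 genes called ran from 0 to 4 with miR-376a*A, from 0 to 10 with miR-376a*G and from 1 to 4 between the forms. The medians of the enzymes then ran from -0.03 to -0.01, -0.04 to 0.02 and -0.05 to 0.00 in these comparisons, and those of the other 19 from -0.13 to -0.04, -0.23 to -0.18 and 0.08 to 0.16. With a replicate block, 0 genes passed with miR-376a*G and 1 between the forms, where the arrays were not paired; with miR-376a*A the block left 0. Array weights gave 6, 11 and 5 calls, with medians of the other 19 of -0.04 for miR-376a*A and 0.17 between the forms. With arrays centred on their medians, 1 gene passed with miR-376a*G and 1 between the forms, and the medians were -0.09 for the enzymes and -0.03 for the other 19 with miR-376a*A, and 0.03 for the enzymes between the forms. With no normalization between arrays 1 and 1 passed, and the medians were -0.15 (enzymes, miR-376a*A), -0.10 and -0.24 (enzymes and other 19, miR-376a*G) and 0.03 (enzymes, between the forms). No filter on dim probe sets gave 2 calls with miR-376a*G and 1 between the forms. The mean of a gene's probe sets gave 2 with miR-376a*A, and a filter at the 70th percentile a median of -0.02 for the other 19 there. No intensity trend left 1 between the forms, and only the 6 arrays compared gave 0 with miR-376a*G and 4 between the forms. Fitting every probe set, chosen after seeing the data, gave 2 genes with miR-376a*A, and with control replicate 1 also left out 9, 13 and 5. The cause of these changes was not tested, other than that fits with fewer arrays have fewer degrees of freedom.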
